A study of Homo sapiens with 10 samples.

Results

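The canonical histone genes encode the proteins around which DNA is wound, and they lie in clusters that carry the symbols HIST1 to HIST4. All genes were taken whose symbol in the deposited table names a HIST1, HIST2, HIST3 or HIST4 gene of class H1, H2A, H2B, H3 or H4, with 14 entries left out whose symbol contains PS, the mark of a pseudogene. This gave 76 of the 58222 genes in the table, and 37 of them reached 1 TPM, a length-corrected share of the library's transcripts, in at least 2 of the 10 libraries. By class, 3 of 6 H1 genes, 10 of 17 H2A genes, 13 of 23 H2B genes, 6 of 15 H3 genes and 5 of 15 H4 genes passed. In GENCODE 29 on GRCh38, 55 of the 76 lie in the HIST1 cluster on chromosome 6, between 25726132 and 27893843. The HIST2 genes (15) and the HIST3 genes (4) are on chromosome 1, and HIST4H4 is on chromosome 12. The entry for HIST2H2BC has an identifier that GENCODE 29 does not hold, and 5 of the genes that did not pass are annotated there as pseudogenes although their symbols lack PS.

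RNA came from OVCAR-3, an established human ovarian adenocarcinoma line, with 2 biological replicates in each of 5 groups. Day1 cells had been held in silica gel for 24 hours and Day3 cells for 3 days. Extracted cells were survivors of 3 days in the gel that had then recovered for 2 weeks in ordinary culture. Treated cells never entered the gel: they were survivors of 24 hours in 0.5 uM cisplatin, which crosslinks DNA, followed by 2 weeks of recovery. Control cells grew in standard culture, and no control kept alongside the recovering cells is labelled. All 5 groups come from 1 cell line, and Extracted and Treated hold only cells that lived through their treatment.

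Histones H2A, H2B, H3 and H4 form the core of the nucleosome, and H1 binds the linker DNA between nucleosomes. The canonical genes are read mainly while DNA is being copied, from short genes without introns that often stand head to head and share a promoter. Their mRNAs normally end in a conserved stem-loop bound by the protein SLBP instead of a poly(A) tail, and they are degraded when DNA synthesis stops. A subset of these genes can also run past the stem-loop to a poly(A) site, which is known from differentiating and non-dividing cells. Replication-independent variants such as H3F3B and H2AFZ are encoded outside the clusters by ordinary polyadenylated mRNAs. The sources used here do not say whether the libraries were made by poly(A) selection.

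The stem-loop was looked for in the GENCODE 29 transcripts on the transcript strand as 16 bases, with 6-base arms around a 4-base loop beginning with TT. The arms had to pair, at most 1 of the pairs being G with T. The first arm had to begin with GG and end with T, the second to begin with A and end with CC. The stem-loop was present in at least 1 transcript of 21 of the 37 genes that passed (56.8%) and of 12 of 38 that did not (31.6%). Among other protein-coding genes it was present in 77 of 19852 (0.388%). The first 2 shares are no like comparison, since 12 of the 37 and 25 of the 38 have no annotated 3′ UTR to search. Among genes with an annotated 3′ UTR, it was missing in 4 that passed and 1 that did not. The forms differed by few bases, and 12 of the 21 genes shared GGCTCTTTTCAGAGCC. The 30 bases around it are shown for 5 of the 7 most abundant genes, since their annotated transcripts go on past it; the stem-loop is in capitals, and all 5 lie in the 3′ UTR.
HIST1H2AC: ccaaaGGCTCTTTTCAGAGCCcccctaccg
HIST1H2BC: ccaaaGGCTCTTTTAAGAGCCacccagata
HIST1H2BD: ccaaaGGCTCTTTTAAGAGCCacgcatgtt
HIST2H2BE: ccaaaGGCTCTTTTCAGAGCCacccaccta
HIST1H4H: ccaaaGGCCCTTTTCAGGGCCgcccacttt

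The HIST1H2AC stem-loop is at chr6:26124669-26124684 on the plus strand, and 1128 bases of the longest transcript follow it. The HIST2H2BE stem-loop, at chr1:149886188-149886203 on the minus strand, is followed by 1729 bases. HIST1H4H has the stem-loop in 4 of 4 transcripts, at chr6:26285131-26285146 on the minus strand, with 18 to 1655 bases after it. HIST1H2BC (chr6:26123472-26123487, minus strand) and HIST1H2BD (chr6:26158587-26158602, plus strand) each have 1 transcript with the stem-loop and 1 without it. The other 2 of the 7, HIST1H2BK and HIST1H1C, are annotated as their coding sequence alone, of 381 and 642 bases, so that the search had no 3′ UTR to read in them.

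Promoters from RefSeq (GRCh38.p14; 250 bases before to 50 after the start) matched 32 of the 37 genes. In that window the CCAAT box, searched on both strands, was found in 84.4% of them, against 34.6% of all 35116 promoters in the table. By class it was found in all 27 matched H1, H2A, H2B and H3 genes and in 0 of 5 H4 genes. TATAAA on the gene's strand was found in 46.9% against 7.33%, and the octamer ATTTGCAT, on either strand, in 40.6% against 1.77%. The octamer was found in 7 of 10 H2A and 6 of 9 H2B promoters and in none of the matched H1, H3 and H4 promoters. Matches of different motifs may overlap, neighbours that stand head to head share part of their windows, and a match describes the letters only. The 250 bases before the start are shown, 5′ to 3′ on the gene's strand, for the most abundant H2B gene, for both an H2A and an H2B gene that were higher in the gel, and for an H2B gene that was lower after cisplatin, with the motifs in capitals.
HIST1H2BK: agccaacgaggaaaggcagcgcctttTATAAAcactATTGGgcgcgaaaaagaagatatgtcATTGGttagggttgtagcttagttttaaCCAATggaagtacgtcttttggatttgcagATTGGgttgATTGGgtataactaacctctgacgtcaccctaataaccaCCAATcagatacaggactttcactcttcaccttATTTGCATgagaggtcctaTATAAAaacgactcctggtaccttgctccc
HIST1H2AC: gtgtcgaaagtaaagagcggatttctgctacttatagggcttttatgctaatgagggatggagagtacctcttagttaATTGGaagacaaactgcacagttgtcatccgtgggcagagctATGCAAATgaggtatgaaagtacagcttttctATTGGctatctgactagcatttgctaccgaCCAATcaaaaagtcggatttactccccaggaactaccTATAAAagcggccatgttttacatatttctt
HIST1H2BD: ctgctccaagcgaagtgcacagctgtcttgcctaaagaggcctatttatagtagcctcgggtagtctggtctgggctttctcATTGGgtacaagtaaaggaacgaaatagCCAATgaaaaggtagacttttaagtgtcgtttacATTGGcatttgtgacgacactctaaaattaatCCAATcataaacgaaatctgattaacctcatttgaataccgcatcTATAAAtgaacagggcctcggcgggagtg
HIST2H2BE: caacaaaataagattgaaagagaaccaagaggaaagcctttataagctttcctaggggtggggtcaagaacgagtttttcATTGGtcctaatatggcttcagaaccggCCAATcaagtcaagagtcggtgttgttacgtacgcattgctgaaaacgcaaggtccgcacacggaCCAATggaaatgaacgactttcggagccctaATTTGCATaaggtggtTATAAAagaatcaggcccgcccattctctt

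These stretches are chr6:27146856-27147105 (minus strand) for HIST1H2BK, chr6:26123922-26124171 (plus) for HIST1H2AC, chr6:26157872-26158121 (plus) for HIST1H2BD and chr1:149886683-149886932 (minus) for HIST2H2BE. Their nearest TATAAA begins 29 to 31 bases before the start in all 4. HIST1H2BK has 6 CCAAT boxes, HIST1H2BD has 4, and HIST1H2AC and HIST2H2BE have 3 each. The octamer begins 49 bases before the start in HIST1H2BK, 46 in HIST2H2BE and 130 in HIST1H2AC, and no match was found in HIST1H2BD.

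A few genes made up nearly all of the histone mRNA measured, and most of the family was close to 0. HIST1H2BK, an H2B gene at chromosome 6, 27146418 to 27146798, averaged 315.4 TPM over the 10 libraries and held 39.5% to 47.7% of the summed TPM of the 37 genes in each. HIST1H1C, the linker histone H1.2, averaged 105.8 TPM, and HIST1H2BC, HIST1H2AC, HIST2H2BE, HIST1H2BD and HIST1H4H followed with 58.1, 55.8, 42.7, 37.7 and 24.2 TPM. These 7 genes held 87.2% to 89.2% of the sum. Of the 37, 12 averaged at least 5 TPM and the other 25 averaged 0.485 to 3.19 TPM. Only 19 of the 37 reached 1 TPM in all 10 libraries.

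The 39 genes that did not pass summed to between 1.85 and 5.67 TPM per library, and 17 of them were listed at 0 in all 10. They include the linker histone genes HIST1H1A and HIST1H1B at 0 throughout, and HIST1H4C at 0 to 0.927 TPM. An exact 0 may also stand for a level the software did not manage to estimate. HIST1H1T and HIST1H3F lay just inside the filter, with 1 TPM or more in 2 libraries and means of 0.485 and 0.495 TPM. HIST2H2BB, at 1.85 TPM in Day3 replicate 1 and at most 0.358 TPM elsewhere, lay just outside it. A second entry, which GENCODE 29 calls HIST2H2BC and the table does not, had 5.04 to 8.58 TPM and is not among the 76.

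A set of 9 histone genes, listed with earlier results of these data known and described as also giving polyadenylated mRNA (HIST1H1C, HIST1H2AC, HIST1H2BC, HIST1H2BD, HIST1H2BG, HIST1H2BJ, HIST1H2BK, HIST1H4H and HIST2H2BE) was compared with the rest by level. All 9 averaged at least 5 TPM, as did 3 of the other 28 genes that passed, HIST1H2AE, HIST3H2A and HIST1H3H. The 9 held 89.8% to 91.9% of the summed TPM in each library. Because the list was drawn up with earlier results known, these levels cannot test a link to polyadenylation. Of 10 RNAs that lack a poly(A) tail 5 passed the filter, and the whole list summed to 48.1 to 125.6 TPM. RN7SL1, the RNA of the signal recognition particle, averaged 47.4 TPM and RN7SK, the 7SK RNA, 17.5 TPM, while RNU11, RNU12 and RNU4ATAC, small RNAs of the minor spliceosome, were listed at 0 in all 10 libraries.

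Several levels rest on how reads of near-identical copies were shared out. Of all 50-base stretches of the HIST1H2BK transcript, 74.1% occur in another gene, and 61.45% occur in H2BFS, an H2B gene on chromosome 21 whose entries averaged 0.131 and 0.127 TPM. Over 50% of the stretches are shared in 5 other genes that passed, HIST1H2AD, HIST1H2AI, HIST1H2AM, HIST1H3D and HIST2H4A, and their separate values are uncertain. HIST1H2AC and HIST3H2A shared 0.421% and 0.591% of theirs, and HIST1H1C, HIST1H4H, HIST1H2AE, HIST1H2BG and HIST1H3H shared none. HIST1H2BN overlaps HIST1H2AL on the same strand and HIST1H2AK on the opposite one, so that its reads can be theirs as well. A model of 381 bases without UTRs also makes the length correction of HIST1H2BK depend on the annotation used, and its release is not known here.

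**Figure D1:**
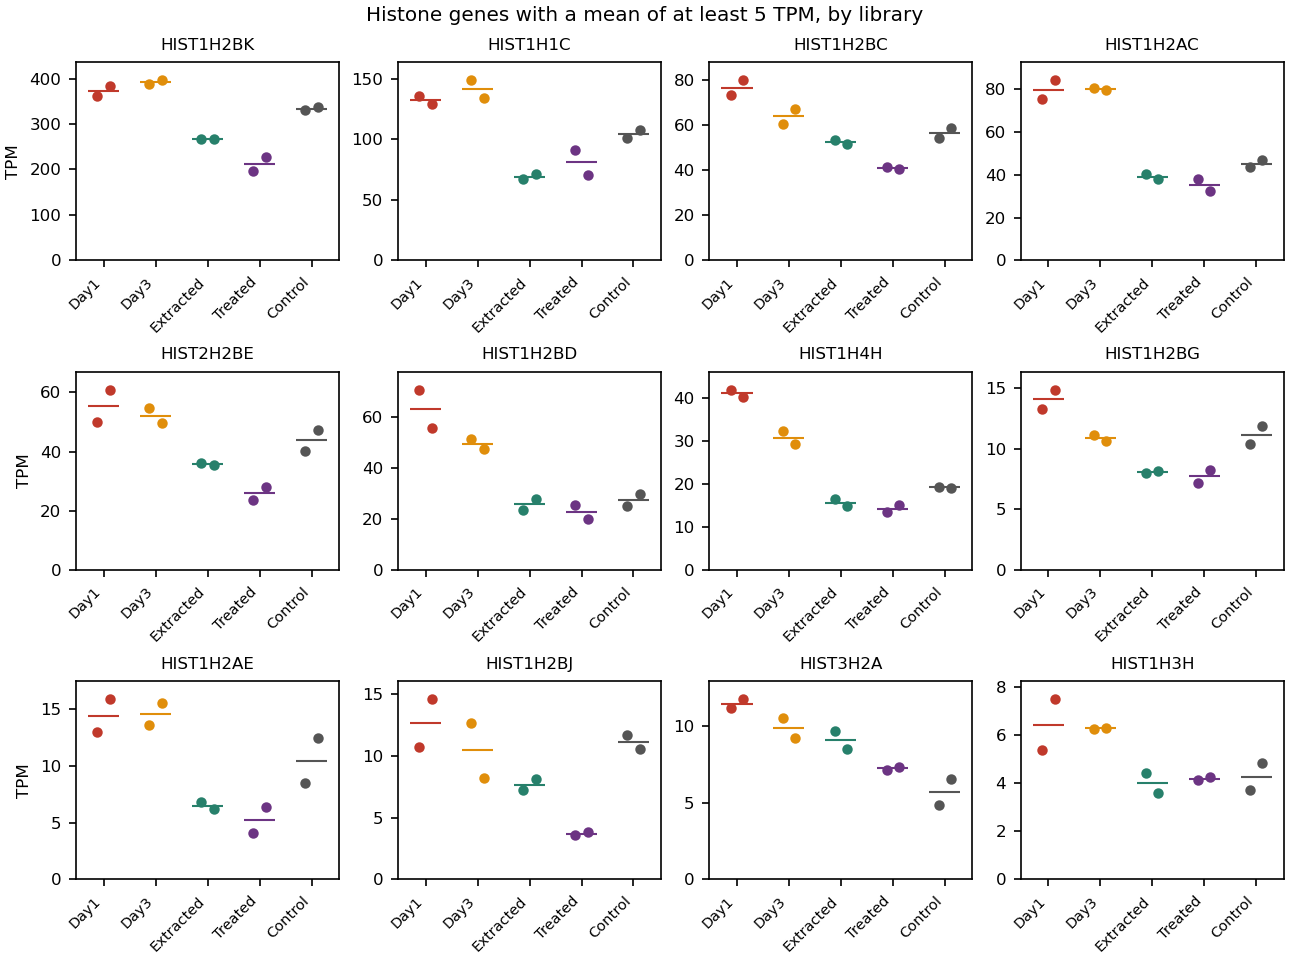
TPM (vertical axes, from 0, a different scale in each panel) in each library of the 12 histone genes with a mean of at least 5 TPM, by group, with points for the 2 libraries and a line for their mean. In HIST1H2BK the Day1 and Day3 libraries sit between 361.4 and 396.2 TPM, the Control libraries at 330.2 and 337.1 TPM, and the Extracted and Treated libraries between 197.4 and 267.6 TPM.

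The 10 libraries had between 13896 and 14173 genes at 1 TPM or more, and TPM carry no read counts, so their depth is unknown. TPM are shares, so a change elsewhere moves every histone value. Mitochondrial mRNAs held 2.29% and 3.92% of TPM in Day1 libraries and 16.7% and 15.8% in Control libraries. Small-RNA genes held 14.7% in Treated replicate 2 and 3.21% in Extracted replicate 1, against 0.196% to 1.24% in the other 8. Over the 15167 genes tested, the median log2 difference from Control was 0.12 on Day1, 0.06 on Day3, -0.02 in Extracted and -0.15 in Treated cells. Of 8 ovarian carcinoma markers all were measured, PAX8 at 308.6 to 500.5 TPM. The fibroblast, leukocyte and endothelial lists summed to at most 15.3, 8.87 and 2.05 TPM. The highest members of the fibroblast and leukocyte lists were COL1A1, at 6.66 to 14.5 TPM, and CD68, at 1.12 to 7.46 TPM. CD68 was highest in the Treated libraries, at 6.21 and 7.46 TPM. Other members, DCN, PTPRC and CD3E, had no more than 0.355, 0.306 and 0.057 TPM.

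The histone genes together were highest in the gel and lowest in the recovered survivors. The summed TPM of the 37 genes was 914.0 and 947.5 in Day1 libraries, 917.2 and 901.2 in Day3 libraries, 573.6 and 581.2 in Extracted libraries, 491.5 and 488.4 in Treated libraries, and 691.9 and 741.4 in Control libraries. No 2 groups overlapped except Day1 and Day3. Against the Control mean, the sum was 1.30 times as high on Day1, 1.27 times on Day3, 0.806 times in Extracted cells and 0.684 times in Treated cells. Over this and 3 other scalings the ratios to Control ran from 1.12 to 1.30 for Day1, 1.14 to 1.28 for Day3, 0.768 to 0.817 for Extracted and 0.684 to 0.770 for Treated. Day1 was above Day3 in TPM as deposited and with small-RNA genes removed, and below it under the other 2 scalings. After scaling by the median of ratios, Treated replicate 2, at 590.0, lay above both Extracted libraries, at 584.9 and 577.6. In bulk RNA, fewer cells in S phase and less histone mRNA per cell cannot be told apart.

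By class, the ratios to Control were largest for H4 and H2A in the gel. The H4 sum was 48.9 and 44.7 TPM on Day1, 37.1 and 32.7 TPM on Day3, 20.8 and 19.5 TPM in Extracted, 17.3 and 18.8 TPM in Treated and 23.9 and 24.2 TPM in Control libraries. It rested mostly on HIST1H4H. The H2A sum was 1.55 times the Control mean on Day1 and 1.56 times on Day3, and the H2B sum 1.23 and 1.19 times. H1 was the class with the lowest ratio in Extracted cells (0.667), and H2B in Treated cells (0.646). These 2 sums also rested mostly on 1 gene each. In the Control means HIST1H1C held 104.2 of 104.9 TPM of the H1 sum, and HIST1H2BK 333.7 of 498.7 TPM of the H2B sum. The H3 sum, at 9.81 and 8.70 TPM in Treated libraries and 9.56 and 10.3 TPM in Control libraries, overlapped. In Extracted libraries the H3 sum was 10.9 and 11.7 TPM, above both Control libraries, and no other class sum lay above Control there. The H3 sum includes HIST1H3D, which was at practically 0 in both Control libraries. These sums carry no test.

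**Figure D2:**
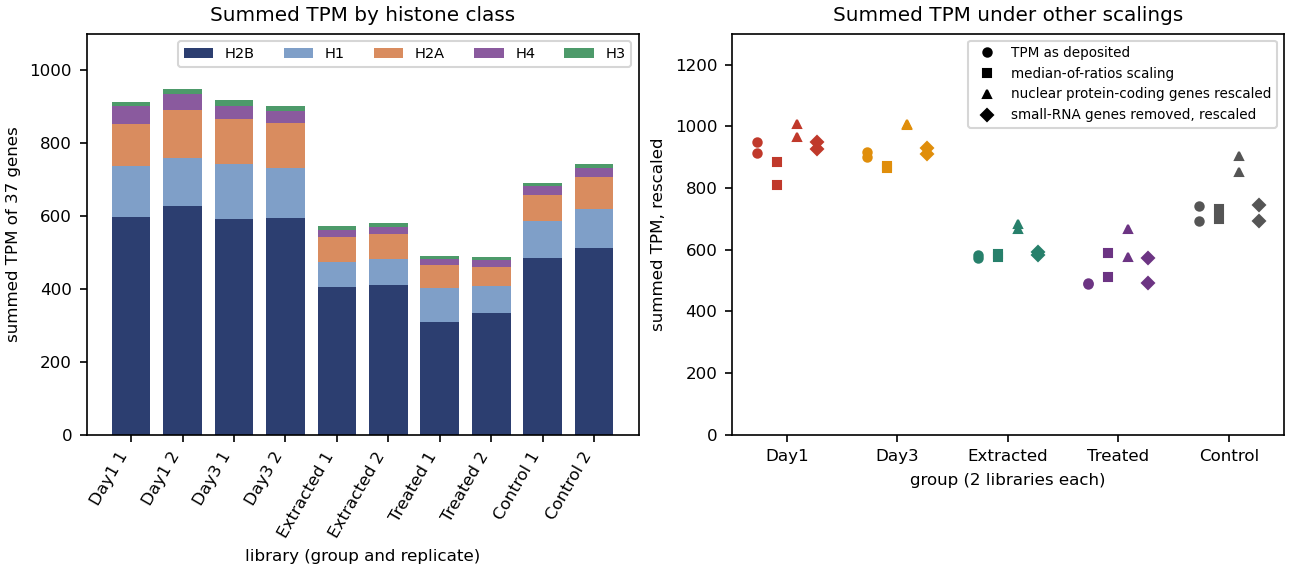
Left, summed TPM of the 37 histone genes in each library, stacked by class; right, the same sum per library under 4 scalings, with 2 points per group. The bars reach 901.2 to 947.5 TPM in the Day1 and Day3 libraries and 488.4 to 581.2 TPM in the Extracted and Treated libraries, with Control at 691.9 and 741.4 TPM.

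After 24 hours in the gel, the histone genes called were higher than in Control. Of the 37 genes, 9 (24.3%) rose and 0 fell on Day1 against Control (limma, Benjamini-Hochberg adjusted p under 0.05 over all tested genes), while 20.7% of all tested genes were called, 14.4% as higher and 6.28% as lower. The 9 belong to H1 (HIST1H1E), H2A (HIST1H2AC, HIST3H2A), H2B (HIST1H2BC, HIST1H2BD, HIST1H2BE, HIST1H2BN) and H4 (HIST1H4H, HIST2H4A), with log2 differences on log2(TPM + 1) of 0.43 to 1.23. HIST1H1E passed the filter through its Day1 libraries alone. The median over the 37 was 0.23. Both Day1 libraries lay above both Control libraries for 11 of the 12 genes with a mean of at least 5 TPM, against 42.1% of all tested genes and 48.3% of those at that level. Among the 25 lower genes it was 8, and in 6 both lay below, against 28.5% and 24.9% of tested genes at their level. No H3 gene was called. The split was 8 higher and 2 lower with median-of-ratios scaling, and 8 and 3 after rescaling nuclear protein-coding genes.

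HIST1H4H, which encodes H4, had 41.9 and 40.3 TPM on Day1, 32.3 and 29.3 TPM on Day3, 16.4 and 14.8 TPM in Extracted, 13.4 and 15.03 TPM in Treated and 19.4 and 19.1 TPM in Control libraries. No Day1 library overlapped any other group, and both survivor groups lay below Control. The log2 difference between Day1 and Control was 1.06 ± 0.11 (SE; adjusted p = 0.000377, limma). HIST1H2BD, an H2B gene, had 70.7 and 55.6 TPM on Day1, 51.3 and 47.3 TPM on Day3, 23.5 and 28.0 TPM in Extracted, 25.3 and 20.1 TPM in Treated and 25.2 and 29.9 TPM in Control libraries. The gel libraries were all higher than the rest, and the Extracted, Treated and Control values overlapped. Its log2 difference on Day1 was 1.16 ± 0.16 (SE; adjusted p = 0.00172, limma).

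HIST1H2AC, an H2A gene, had 75.4 and 84.0 TPM on Day1, 80.3 and 79.3 TPM on Day3, 40.1 and 38.1 TPM in Extracted, 37.8 and 32.5 TPM in Treated and 43.3 and 46.9 TPM in Control libraries. Gel and Control values did not overlap, and the log2 difference on Day1 was 0.81 ± 0.11 (SE; adjusted p = 0.00149, limma). HIST3H2A, the H2A gene of the HIST3 cluster, had 11.2 and 11.7 TPM on Day1, 10.5 and 9.24 TPM on Day3, 9.64 and 8.48 TPM in Extracted, 7.16 and 7.34 TPM in Treated and 4.83 and 6.57 TPM in Control libraries. It was the only one of the 12 genes with a mean of at least 5 TPM whose Extracted and Treated libraries all lay above both Control libraries. Its difference from Control was 0.91 ± 0.15 on Day1 (adjusted p = 0.00382, limma), and 0.60 in Extracted cells (adjusted p = 0.0786, limma) and 0.31 in Treated cells (adjusted p = 0.157, limma) did not pass.

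Of the genes with a mean under 5 TPM, 4 were called on Day1, and 3 of them are described here. HIST1H1E, the linker histone H1.4, had 2.48 and 2.07 TPM on Day1, 0.907 and 0.500 TPM on Day3, 0.876 and 0.382 TPM in Extracted, 0.775 and 0.661 TPM in Treated and 0.236 and 0.584 TPM in Control libraries, a log2 difference of 1.22 ± 0.24 on Day1 (adjusted p = 0.00764, limma). It reached 1 TPM in the 2 Day1 libraries alone, so that this call, the only one in class H1, was partly set by the filter. HIST1H2BN, an H2B gene, had 4.77 and 6.19 TPM on Day1, 3.28 and 2.51 TPM on Day3, 2.00 and 1.40 TPM in Extracted, 1.23 and 1.21 TPM in Treated and 1.94 and 1.58 TPM in Control libraries, a difference of 1.23 ± 0.19 on Day1 (adjusted p = 0.00306, limma). HIST1H2BN reached 1 TPM in all 10 libraries. HIST2H4A, an H4 gene with a near-identical copy, HIST2H4B, had 3.53 and 2.29 TPM on Day1, 1.37 and 1.13 TPM on Day3, 1.04 and 1.44 TPM in Extracted, 0.681 and 0.996 TPM in Treated and 1.07 and 1.41 TPM in Control libraries, a difference of 0.79 on Day1 (adjusted p = 0.0306, limma). Without Control replicate 1 the call of HIST1H1E was lost, and that of HIST2H4A was lost without either Control library or without Day1 replicate 1.

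Of the 3 most abundant genes, HIST1H2BC was called on Day1. HIST1H2BK had 361.4 and 382.7 TPM on Day1, 388.5 and 396.2 TPM on Day3, 266.1 and 267.6 TPM in Extracted, 197.4 and 226.6 TPM in Treated and 330.2 and 337.1 TPM in Control libraries. Its Day1 difference was 0.16, with a 95% interval of -0.04 to 0.36 (adjusted p = 0.242, limma). HIST1H1C had 135.5 and 129.3 TPM on Day1, 148.9 and 134.6 TPM on Day3, 67.3 and 71.4 TPM in Extracted, 91.4 and 71.0 TPM in Treated and 100.9 and 107.5 TPM in Control libraries. The gel libraries lay above Control without overlap, but differences of 0.34 on Day1 (adjusted p = 0.0746, limma) and 0.44 on Day3 (adjusted p = 0.0514, limma) did not pass. HIST1H2BC had 73.3 and 79.9 TPM on Day1, 60.7 and 67.0 TPM on Day3, 53.3 and 51.5 TPM in Extracted, 41.4 and 40.7 TPM in Treated and 54.5 and 58.8 TPM in Control libraries. The call of HIST1H2BC (0.43, adjusted p = 0.0154, limma) was lost under median-of-ratios scaling, after rescaling nuclear protein-coding genes, and without Day1 replicate 2 or either Control library.

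H3 was represented by low genes. HIST1H3H had 5.39 and 7.49 TPM on Day1, 6.26 and 6.31 TPM on Day3, 4.41 and 3.59 TPM in Extracted, 4.14 and 4.25 TPM in Treated and 3.72 and 4.82 TPM in Control libraries. The gel libraries lay above the others without overlap, and differences of 0.49 on Day1 (adjusted p = 0.0767, limma) and 0.48 on Day3 (adjusted p = 0.122, limma) did not pass. HIST1H3E had 3.20 and 3.14 TPM on Day1, 3.87 and 3.76 TPM on Day3, 2.76 and 2.19 TPM in Extracted, 2.61 and 2.43 TPM in Treated and 2.57 and 3.59 TPM in Control libraries, and it was not called in any comparison. HIST1H3D was at practically 0 in Treated replicate 2 (3.41e-05 TPM) and in both Control libraries (6.62e-06 and 4.4e-05 TPM), and at 0.903 to 2.88 TPM in the other 7. All of its 50-base stretches occur in another gene, so no fold is given.

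At 3 days 4 of the 37 genes (10.8%) were called higher than Control and 0 lower, with 9.82% of all tested genes called, 5.18% as higher and 4.64% as lower. The split was 5 higher and 1 lower with median-of-ratios scaling, 6 and 2 after rescaling nuclear protein-coding genes, and 6 and 1 with small-RNA genes removed. The 4 were HIST1H2BD, HIST1H2AC, HIST3H2A and HIST1H4H, with differences of 0.82, 0.81, 0.71 and 0.65. The adjusted p-values of limma were 0.0148, 0.00307, 0.0203 and 0.00854. Of the 12 genes with a mean of at least 5 TPM, 10 had both Day3 libraries above both Control libraries, against 38.9% of all tested genes and 44% of those at that level. Of the 25 lower genes, 4 lay above and 7 below Control without overlap, against 27.7% and 26.3% of tested genes at their level. Of the 4, HIST1H2AC alone kept its call with each library left out and under each alternative but a 2-fold minimum, which left 0 of the 4. Leaving out Control replicate 1 or Day3 replicate 1 left 1 of the 4 calls, Control replicate 2 or Day3 replicate 2 left 2, and either Treated library left out gave 7.

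Between Day3 and Day1 no histone gene was called, while limma called 2.35% of all tested genes, 0.659% as higher and 1.69% as lower. 8 of the 37 had an unadjusted p under 0.05. HIST1H4H differed by -0.41 (95% interval -0.65 to -0.16, adjusted p = 0.0962, limma), with both Day3 libraries below both Day1 libraries. The differences of HIST1H2BN and HIST1H1E were -0.73 and -0.95 (adjusted p = 0.0882 and 0.0732, limma). HIST1H2AC differed by 0.00 (interval -0.24 to 0.25). The comparisons of Day1, Day3, Extracted and Treated with Control share the Control libraries, so likeness between them is in part built in.

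**Figure D3:**
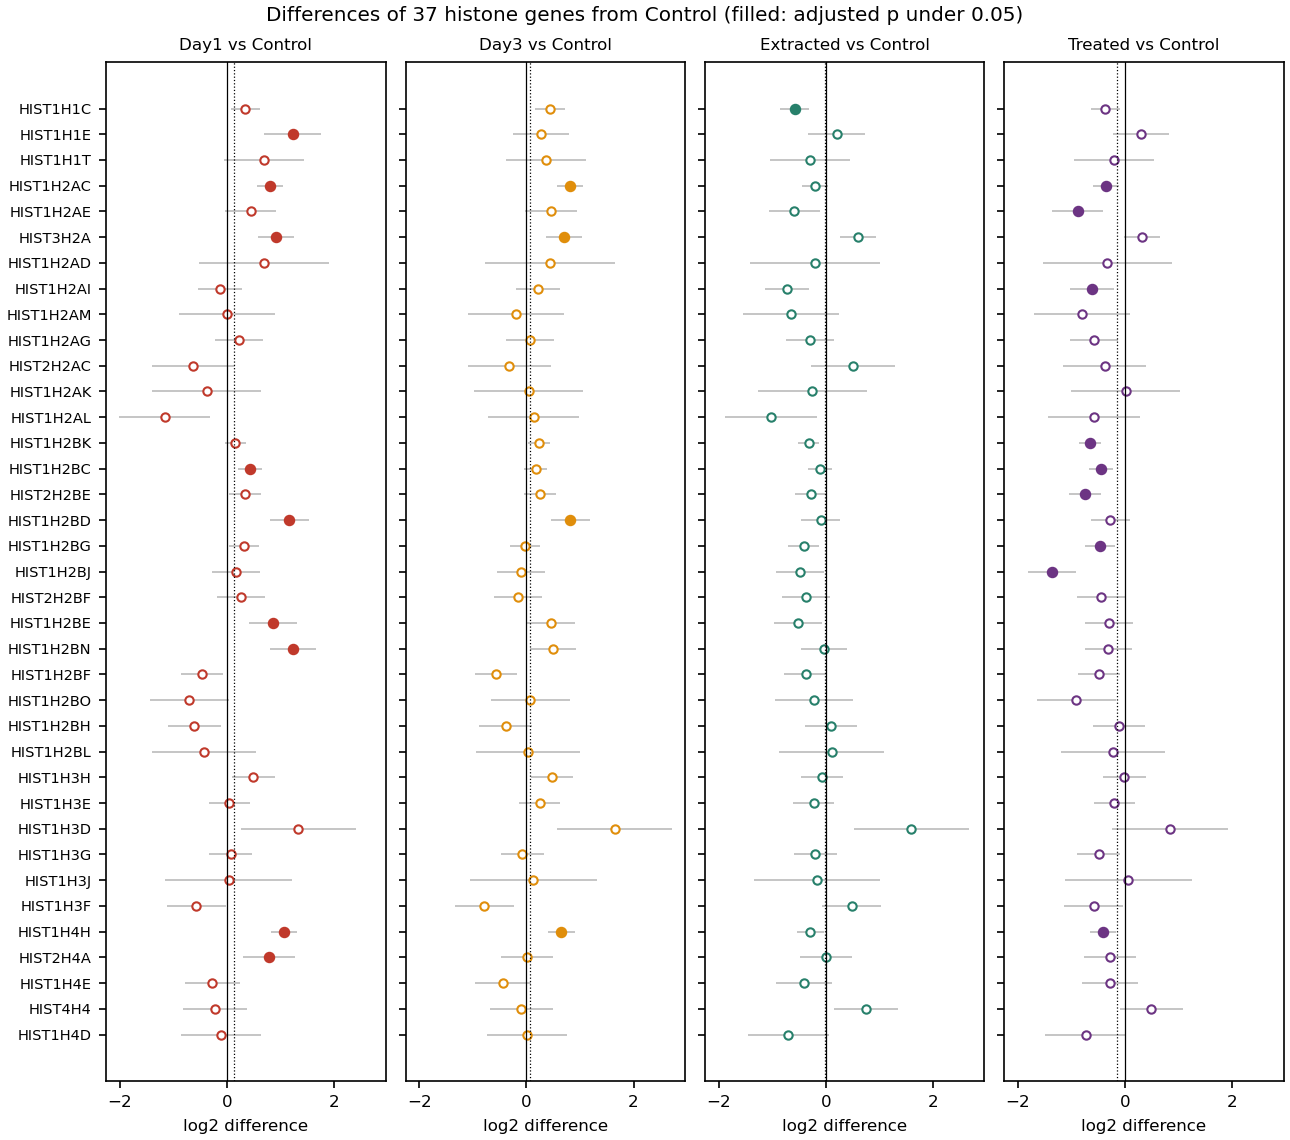
Log2 differences (horizontal axes, log2(TPM + 1), group minus Control) of the 37 histone genes on Day1, Day3, in Extracted and in Treated cells, ordered by class and mean TPM, with 95% intervals of limma as bars and called genes filled. The solid line is 0 and the dotted line the median of all tested genes. The 9 filled points on Day1 lie right of 0 and the 9 filled points in Treated cells lie left of it.

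Cells that had recovered from the gel carried less of most abundant histone mRNAs than cells in it. Of the 37 genes, 9 fell and 1 rose in Extracted cells against Day3 (17.1% of all tested genes were called, 6.3% as higher and 10.8% as lower). The 9 were HIST1H1C, HIST1H2AC, HIST1H2AE, HIST1H2AI, HIST1H2BD, HIST1H2BE, HIST1H2BK, HIST2H2BE and HIST1H4H. The median difference was -0.38 over the 37 genes and -0.07 over all tested genes. In 11 of the 12 genes with a mean of at least 5 TPM both Extracted libraries lay below both Day3 libraries, against 41.3% of all tested genes and 45% of those at that level. HIST3H2A, at 9.64 and 8.48 TPM in Extracted and 10.5 and 9.24 TPM in Day3 libraries, was the exception.

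HIST1H1C differed between Extracted and Day3 by -1.02 ± 0.12 (SE; adjusted p = 0.00085, limma), and HIST1H2AC by -1.01 ± 0.11 (adjusted p = 0.000489, limma). HIST1H2AE, an H2A gene, had 12.9 and 15.9 TPM on Day1, 13.6 and 15.5 TPM on Day3, 6.77 and 6.22 TPM in Extracted, 4.05 and 6.35 TPM in Treated and 8.45 and 12.5 TPM in Control libraries. Extracted and Day3 values did not overlap, and the difference was -1.05 ± 0.21 (adjusted p = 0.0093, limma). HIST1H1C and HIST1H2AC kept their calls with each library left out and under each alternative, and HIST1H2BD, HIST1H2BK and HIST1H4H did so except under a 2-fold minimum. HIST1H2AE lost its call without Day3 replicate 2 or Extracted replicate 2, and without Day3 replicate 1 the count called was 6.

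The gene that rose was HIST1H3F, an H3 gene near the filter. It had 0.341 and 0 TPM on Day1, 0 and 0 TPM on Day3, 1.25 and 1.58 TPM in Extracted, 0.320 and 0 TPM in Treated and 0.881 and 0.582 TPM in Control libraries. The Extracted libraries were the highest of all 10. It passed the filter through these 2 libraries alone, so that the call (adjusted p = 0.00744, limma) was partly set by the filter, and no fold is given against Day3, where it was listed at 0.

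Against Control, 1 of the 37 genes was called in Extracted cells, HIST1H1C, which was lower (limma called 1.99% of all tested genes, 0.857% as higher and 1.13% as lower). Its difference was -0.58 ± 0.12 (SE; adjusted p = 0.0456, limma), and without Control replicate 1 or 2, Day3 replicate 1 or 2, or Extracted replicate 1 or 2 it was no longer called. The call was also lost with no filter on low values, with a replicate block (0 called) and with a 2-fold minimum. Without either Treated library 3 genes were called. Both Extracted libraries lay below both Control libraries for 9 of the 12 genes with a mean of at least 5 TPM, against 30.3% of all tested genes and 31.5% of those at that level, and the median over the 37 was -0.23 against -0.02 over all tested genes. HIST1H2BK differed by -0.32 (95% interval -0.52 to -0.12, adjusted p = 0.107, limma). HIST1H2BD differed by -0.10 (interval -0.45 to 0.26) and HIST1H2AC by -0.20 (interval -0.44 to 0.04). Small-RNA genes held 3.21% of Extracted replicate 1, and their part in these differences was not tested.

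In survivors of cisplatin the histone genes called were lower than in Control, and most of them were among the more abundant genes. Of the 37 genes, 9 (24.3%) fell and 0 rose (24.5% of all tested genes were called, 18.2% as lower and 6.28% as higher). They were 3 H2A genes (HIST1H2AC, HIST1H2AE, HIST1H2AI), 5 H2B genes (HIST1H2BC, HIST1H2BG, HIST1H2BJ, HIST1H2BK, HIST2H2BE) and HIST1H4H. Of the 12 genes with a mean of at least 5 TPM, 8 were called lower, against 22.8% of tested genes at that level. Of the 25 genes under 5 TPM, 1 was called lower, against 8.22% of tested genes at that level. The median was -0.37 over the 37 genes, against -0.15 over all tested genes. Both Treated libraries lay below both Control libraries for 9 of the 12 genes with a mean of at least 5 TPM, against 44.1% of all tested genes and 49.2% of those at that level.

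HIST1H2BJ, an H2B gene, had 10.7 and 14.6 TPM on Day1, 12.7 and 8.21 TPM on Day3, 7.20 and 8.14 TPM in Extracted, 3.57 and 3.85 TPM in Treated and 11.7 and 10.5 TPM in Control libraries. The Treated libraries were the lowest of all, and the difference from Control was -1.36 ± 0.20 (SE; adjusted p = 0.00154, limma). HIST2H2BE, an H2B gene of the HIST2 cluster, had 50.1 and 60.9 TPM on Day1, 54.6 and 49.8 TPM on Day3, 36.2 and 35.5 TPM in Extracted, 23.6 and 28.0 TPM in Treated and 40.3 and 47.3 TPM in Control libraries. The groups of survivors did not overlap each other or Control, and the Treated difference was -0.74 ± 0.13 (adjusted p = 0.00429, limma). HIST1H2BK differed by -0.66 ± 0.09 (adjusted p = 0.00114, limma) and HIST1H2AE by -0.89 ± 0.21 (adjusted p = 0.0156, limma).

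HIST1H2BJ kept its call with each library left out and under each alternative, and HIST1H2BK and HIST2H2BE did so except under a 2-fold minimum. With scaling by the median of ratios, which brought the median of all genes to -0.00, HIST1H2BJ, HIST1H2BK and HIST2H2BE of the 9 remained. With small-RNA genes removed 5 genes were called, and after rescaling nuclear protein-coding genes 15. Treated replicate 2, with 14.7% of its TPM in small-RNA genes, was the higher of the Treated libraries for HIST1H2BK and the lower for HIST1H1C. The count was 5 without Control replicate 1 and 3 without Control replicate 2. HIST1H1C, at -0.37 (adjusted p = 0.054, limma), and HIST1H2BD, at -0.27 (adjusted p = 0.24, limma), did not pass.

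Set against Extracted cells, Treated cells had 4 histone genes (10.8% of the 37) lower and 0 higher (12.1% of all tested genes were called, 3.24% as higher and 8.87% as lower). The split was 1 higher and 2 lower under each of the 3 other scalings. The 4 were HIST1H2BJ, HIST1H2BK, HIST1H2BC and HIST1H3F. HIST1H2BJ differed by -0.88 ± 0.20 (SE; adjusted p = 0.0238, limma), HIST1H2BK by -0.33 ± 0.09 (adjusted p = 0.0408, limma) and HIST1H2BC by -0.34 ± 0.10 (adjusted p = 0.04996, limma). HIST1H3F, called at an adjusted p of 0.0249 (limma), is the gene described above that passed the filter through the Extracted libraries. The median over all tested genes was -0.13, that over the 37 was -0.16. Both Treated libraries lay below both Extracted libraries for 6 of the 12 genes with a mean of at least 5 TPM, against 41.7% of all tested genes and 48.6% of those at that level. Without either Extracted library no gene was called, without Treated replicate 2 it was 1, and without any 1 of the Control or Day3 libraries it was 2. HIST1H1C ran the other way, at 0.21 (95% interval -0.06 to 0.49, adjusted p = 0.27, limma).

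Levels of histone genes that stand head to head ranged from alike to far apart. Within the 76 genes, 13 pairs have starts at most 500 bases apart on opposite strands, and in 8 of them both genes passed. HIST1H2BC and HIST1H2AC, 219 bases apart, averaged 58.1 and 55.8 TPM, and HIST1H2BG and HIST1H2AE, 283 bases apart, averaged 10.4 and 10.2 TPM. HIST2H2BE and HIST2H2AC, 323 bases apart, averaged 42.7 and 1.84 TPM, and HIST1H2BJ and HIST1H2AG 9.12 and 2.62 TPM. HIST1H2BK and HIST3H2A each had a partner that did not pass, HIST1H2AH at 0.273 TPM and HIST3H2BB at 0.270 TPM. The stretches printed for HIST1H2BK and HIST2H2BE lie between the starts of such pairs.

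Partners of like level did not always pass the tests together. On Day1 HIST1H2AC differed from Control by 0.81 and HIST1H2BC by 0.43, and on Day3 by 0.81 and 0.17, the last with an adjusted p of 0.307 (limma). In Treated cells HIST1H2AE and HIST1H2BG differed from Control by -0.89 and -0.47, and both were called. HIST2H2AC, whose values in Control libraries were 0.969 and 3.52 TPM, differed from Control by -0.38 in Treated cells (adjusted p = 0.457, limma), beside -0.74 for HIST2H2BE. The difference between partners was not tested. The lower partners HIST2H2AC and HIST1H2AH are annotated as coding sequence alone, as is the higher partner HIST1H2BK.

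**Figure D4:**
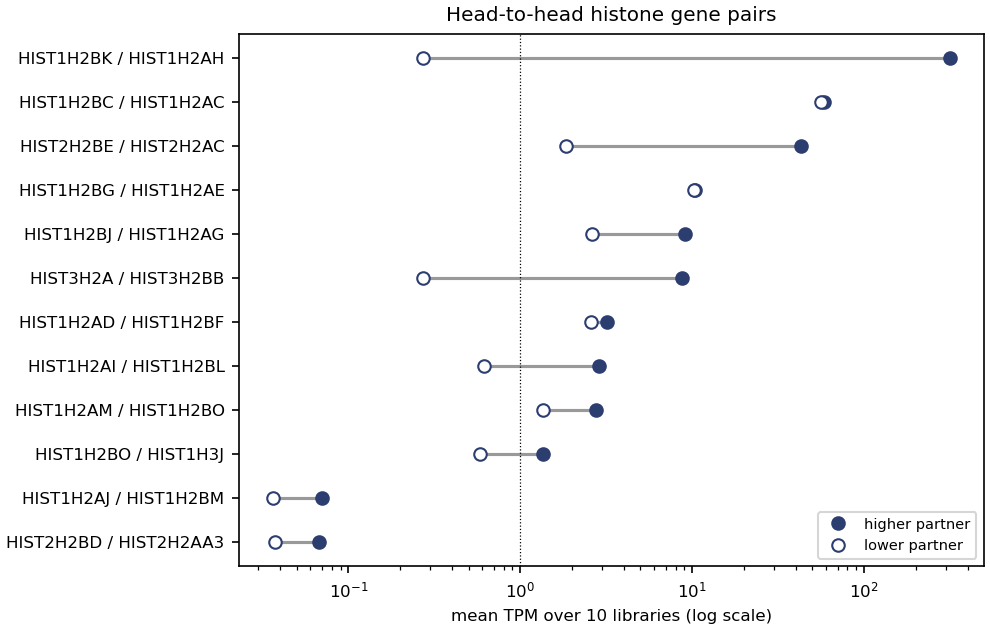
Mean TPM over 10 libraries (horizontal axis, log scale) of both genes of 12 head-to-head pairs, filled for the higher and open for the lower partner, with the dotted line at 1 TPM. HIST1H2AA and HIST1H2BA, both listed at 0, are not drawn. The partners of HIST1H2BC and HIST1H2BG nearly coincide, and HIST1H2BK lies at 315.4 TPM with its partner at 0.273 TPM.

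By kind of gene model the levels were as follows. Among the genes that passed, 9 of 21 with a stem-loop in an annotated 3′ UTR averaged at least 5 TPM, as did 1 of 4 with a 3′ UTR but no stem-loop and 2 of 12 with no 3′ UTR. Among those that did not pass, 25 have no 3′ UTR, and none of the 25 averaged over 0.274 TPM. The part of the models in the levels was not tested.

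The S-phase genes called in the gel were lower than in Control. Of 20 S-phase genes, 0 rose and 6 fell on Day1 (median -0.25), 0 rose and 2 fell on Day3 (median -0.22), 0 were called in Extracted cells by limma (median -0.16, with 3 at an unadjusted p under 0.05) and 11 fell in Treated cells (median -0.47). Of all tested genes 6.28% were called lower on Day1, 4.64% on Day3, 1.13% in Extracted and 18.2% in Treated cells. The largest falls on Day1 were those of POLE, a DNA polymerase subunit (-1.32, adjusted p = 0.00142, limma), LIG1, a DNA ligase (-0.90, adjusted p = 0.00186, limma), and TK1, thymidine kinase (-0.48, adjusted p = 0.00825, limma). In Treated cells CDC6, a replication licensing factor, differed by -0.73, and the helicase subunits MCM4 and MCM5 by -0.77 and -0.66 (adjusted p = 0.00102, 0.00335 and 0.00185, limma). The Day1 count of S-phase genes was 12 with scaling by the median of ratios and 15 after rescaling nuclear protein-coding genes. No test compared the lists.

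Among 11 histone variant genes, 1 rose and 1 fell on Day1, while 20.7% of all tested genes were called. H1F0, the linker histone H1.0 known from non-dividing cells, differed by 0.74 (adjusted p = 0.0023, limma), with 278.6 and 237.1 TPM on Day1 and 149.8 and 157.0 TPM in Control libraries. H2AFX, the variant phosphorylated at DNA breaks, differed by -0.50 (adjusted p = 0.0213, limma). On Day3 H1F0 was again called higher (0.46, adjusted p = 0.0303, limma), and in Extracted cells it differed from Day3 by -0.66 (adjusted p = 0.00364, limma). In Treated cells 6 variants fell and 1 rose: CENPA, the centromeric H3 variant, differed by -0.69, H2AFX by -0.58, and H2AFJ by 0.65 (adjusted p = 0.00362, 0.00999 and 0.0166, limma). The share of all tested genes called against Control was 9.82% on Day3 and 24.5% in Treated cells. H3F3B, at 509.7 to 938.4 TPM, and H2AFZ, at 360.5 to 579.7 TPM, were each above HIST1H2BK in all 10 libraries.

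Of genes that make and handle histone mRNA, 2 of 16 in 3′ processing and turnover and 3 of 9 in the histone locus body and transcription were called on Day1, against 20.7% of all tested genes. Of the 16 genes of 3′ processing and turnover, ZNF473, a U7 snRNP partner, rose on Day1 (0.63, adjusted p = 0.0199, limma) and SRRT, a cap-complex protein, fell (-0.65, adjusted p = 0.00769, limma). By limma 0 were called on Day3 and in Extracted cells, with 2 and 0 at an unadjusted p under 0.05, and CSTF2 and CPSF2, cleavage factors, fell in Treated cells (-0.58 and -0.57, adjusted p = 0.0167 and 0.0173, limma). SLBP stood at 84.1 and 70.2 TPM on Day1 and 72.4 and 68.0 TPM in Control libraries and was not called against Control in any group. Of 9 genes of the histone locus body and histone gene transcription, COIL, coilin, rose on Day1 (0.46), and E2F1 and CCNE1, cyclin E1, fell (-0.49 and -0.39; adjusted p = 0.0187, 0.0113 and 0.0286, limma). In Treated cells 6 of the 9 fell, with CCNE1 at -0.66, CCNE2 at -0.56 and YY1 at -0.51 (adjusted p = 0.00242, 0.0156 and 0.0307, limma). Of all tested genes 18.2% fell in Treated cells. With scaling by the median of ratios 1 of the 9 was called there.

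Of 21 histone chaperones and acetyltransferase genes, TONSL, which binds newly made histones, and HJURP, the chaperone of CENPA, fell on Day1 (-0.73 and -0.44, adjusted p = 0.00354 and 0.02, limma) and on Day3 (-0.57 and -0.67, adjusted p = 0.0196 and 0.00654, limma). These 2 of 21 stand beside 20.7% of all tested genes called on Day1 and 9.82% on Day3. By limma 0 were called in Extracted cells against Control, with 3 at an unadjusted p under 0.05. TONSL, HJURP and NPM1, nucleophosmin, were higher in Extracted cells than on Day3. In Treated cells 5 fell, the largest being MMS22L, the partner of TONSL (-0.80), and HJURP (-0.69; adjusted p = 0.0201 and 0.0021, limma). Of all tested genes 24.5% were called there, 18.2% as lower. Of the 5 tested RNAs without a poly(A) tail, RN7SL1 was called in 1 comparison, at 1.28 in Extracted cells against Day3 (adjusted p = 0.0248, limma).

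**Figure D5:**
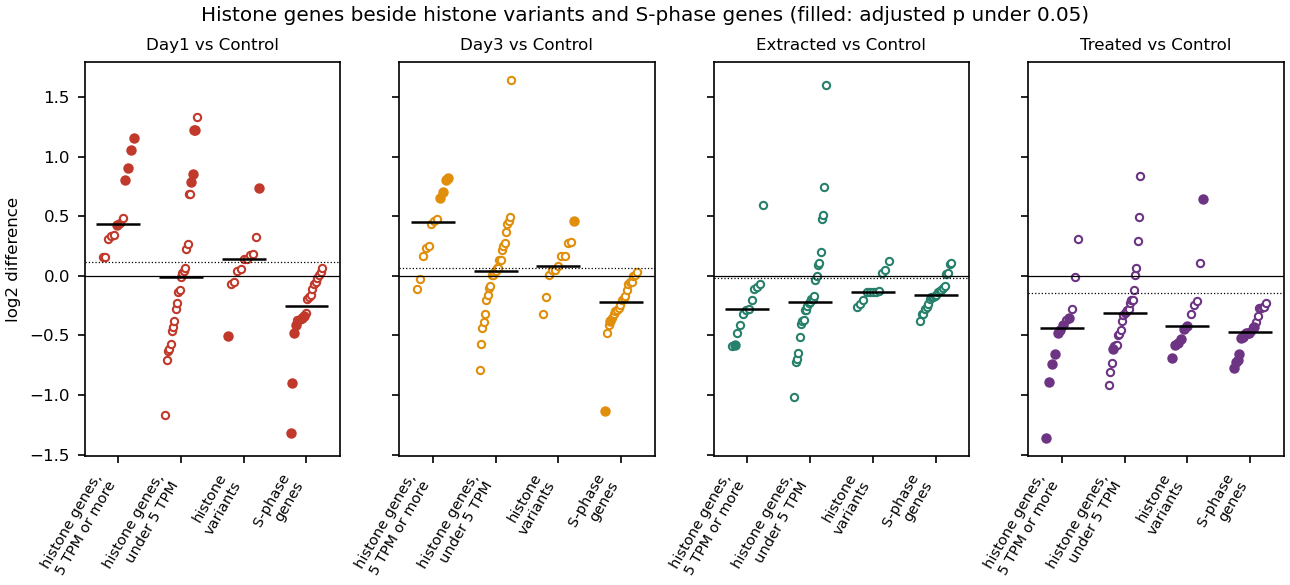
Log2 differences (vertical axis, log2(TPM + 1), group minus Control) of single genes: 12 histone genes with a mean of at least 5 TPM, 25 under it, 11 histone variants and 20 S-phase genes, with called genes filled, black bars for medians and the dotted line for the median of all tested genes. On Day1 and Day3 the 12 histone genes have medians of 0.44 and 0.45, and the S-phase genes -0.25 and -0.22; in Treated cells both medians are below 0.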

How the data were processed

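RNA of 10 libraries was sequenced. The authors deposited 1 TPM value per gene and library, made with Trimmomatic, STAR and Cufflinks on GRCh38 per the submitters' processing notes. For tool versions, annotation release, strand and library selection: not given in the sources used here. Each of the 15167 genes with at least 1 TPM in 2 or more libraries was tested on log2(TPM + 1) with limma 3.58.1 (R 4.3.3), fitting a mean for each group over all 10 libraries with a trended prior variance, which left 5 residual degrees of freedom. Fold changes on this scale understate the change of low genes. Benjamini-Hochberg adjustment ran over all tested genes, and a gene was called at an adjusted p under 0.05. The fit was also run on simulated data with independent noise for each gene, and no result of that run is used here. The simulated data held no shift in library composition, so they do not test its effect. Sequence searches and figures read GENCODE 29 transcripts and RefSeq promoters in Python 3.11.15, with Matplotlib 3.10.9, pandas 2.3.3 and NumPy 2.4.6. By rule, values of every library were given for the 2 most abundant genes of each class and, in each comparison, 3 called genes at either extreme of the log2 difference; of each other list at most 3 called genes with the largest change were named, or the 2 most abundant, and H3F3B, H2AFZ, SLBP, HIST1H3D, NPM1 and HIST2H2AC were added after their values were seen. The members and gene lists were chosen with earlier results of these data known. Alternatives changed the pseudocount, the filter, the scaling, the libraries fitted and the fold minimum, or added a replicate block.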

Additional observations from a re-analysis of the deposited data

How the results depend on the processing

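Of the 37 calls made over the 7 comparisons, 14 were kept with each library left out and under every alternative run for them but a 2-fold minimum, 23 were lost under at least 1 of these, and 0 changed direction. Of the 14, 6 also passed a 2-fold minimum. On Day1 against Control (9 called) the count was 5 with a filter at 5 TPM and 4 with a 2-fold minimum, and 6 to 12 with 1 library left out. On Day3 against Control (4 called) it was 8 after rescaling nuclear protein-coding genes, 7 with small-RNA genes removed, 7 with the 2 groups fitted alone, 0 with a 2-fold minimum, and 1 to 7 with 1 library left out. In Extracted cells against Control (1 called) it was 0 without a filter, 2 after rescaling nuclear protein-coding genes, 3 with the 2 groups alone, 0 with a 2-fold minimum, and 0 to 3 with 1 library left out. In Treated cells against Control (9 called) it was 3 with median-of-ratios scaling, 15 after rescaling nuclear protein-coding genes, 5 with small-RNA genes removed, 3 with the 2 groups alone, 1 with a 2-fold minimum, and 3 to 10 with 1 library left out. On Day3 against Day1 (0 called) it was 1 without a filter and 1 after rescaling nuclear protein-coding genes, and 0 to 1 with 1 library left out, the 1 being without Day1 replicate 2. In Extracted cells against Day3 (10 called) it was 16 with the 2 groups alone, 4 with a 2-fold minimum, and 6 to 13 with 1 library left out. In Treated against Extracted cells (4 called) it was 1 without a filter, 0 with the 2 groups alone, 1 with a 2-fold minimum, and 0 to 5 with 1 library left out. The cause of these shifts was not tested.

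The labels do not say whether replicate numbers pair the samples. Deviations of same-numbered libraries correlated at -0.02 to 0.09, and low correlations cannot exclude a pairing. With a replicate block the counts were 9, 4, 0 and 9 on Day1, Day3, in Extracted and in Treated cells against Control, 0 on Day3 against Day1, 11 in Extracted cells against Day3 and 4 in Treated against Extracted cells. A group left with 1 library was assumed to vary like the others. Depth is unknown, and values near 1 TPM rest on an unknown number of reads.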
